A study of Rattus norvegicus with 8 samples.

Results

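The genes described here mark the epithelial cells of the bile ducts (cholangiocytes) and the progenitor cells related to them, and were followed in rat liver after surgery and during growth. They were chosen by name: Krt7, Krt19, Epcam, Sox9, Spp1, Cftr, Cd24 and Prom1. Of these 8 genes, 7 had a probe set with a single symbol among the 14511 genes tested. For Sox9, a transcription factor of the duct lineage, the annotation used here names no probe set, and it was not analysed here. The study hybridised whole-liver RNA of female Wistar rats, which are outbred, to 8 arrays of the Affymetrix Rat Gene 1.0 ST type. The 4 groups had 2 arrays each. One is the liver that remained 8 h after partial hepatectomy (PH), in which the lateral lobes are removed. The others are livers of rats aged 2, 4 and 12 weeks that had no operation recorded in the labels. The labels do not state how old the operated rats were, and sham-operated livers were not analysed here, so in comparisons with the PH group an effect of surgery and one of age cannot be told apart. Sample titles speak of biological replicates and the design of duplicates, so the p-values measure how far these arrays spread, which may be partly technical.

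As background, cholangiocytes are a small minority of liver cells. They line the bile ducts, carry a keratin pair that hepatocytes lack (Krt7 and Krt19), and alkalinise bile through the chloride channel Cftr and bicarbonate exchange. Duct cells and hepatocytes descend from a common fetal progenitor, and Epcam, Sox9, Cd24 and Prom1 (CD133) are widely used to sort duct and progenitor-like cells. Spp1 (osteopontin), a secreted phosphoprotein, is made by cholangiocytes and also by activated macrophages. In whole-liver RNA, fewer cells of a type and less RNA per cell cannot be told apart.

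Values are log2 levels after robust multi-array averaging (RMA), with the 2 arrays called first and second by the number in their title. A difference passed when its adjusted p (limma, Benjamini-Hochberg over 14511 genes) was under 0.05. The 12-week pair was the least alike: 12.7% of genes lay at least 2-fold apart in it, compared with 2.98% (PH), 3.31% (2 weeks) and 4.28% (4 weeks). The median of 1283 olfactory, vomeronasal and taste receptor genes, which belong to sensory cells, was 4.74 on the first 12-week array, 4.66 on the first PH array and between 3.92 and 4.17 on the other 6. Hepatocyte markers (14 measured) had a mean level between 12.98 and 13.21 on every array, and 0 of them passed in any of the 6 comparisons by limma (0 to 2 with an unadjusted p under 0.05, beside 4.47% to 11.6% of all genes). Several lay near the highest value of the data, 14.23 (Alb at 14.10 to 14.19), so the even mean does not show an even share of hepatocytes.

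Few differences of these genes passed. By a limma F test over the 4 groups 0 of 7 passed, where 1.79% of all genes did, and 2 of 7 (Cd24 and Prom1) had an unadjusted p under 0.05, where 11% of all genes did. The pairwise comparison of PH with 2 weeks had 1 pass, Prom1, which was higher after PH. In it 2.16% of all genes passed and 0.793% passed as higher, and 3 of the 7 genes (Prom1, Cd24 and Krt19) had an unadjusted p under 0.05, where 11.6% of all genes did.

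The other comparisons had 0 of 7 passing. For PH and 12 weeks 0.0345% of all genes passed, and 1 of 7 (Prom1) was under an unadjusted p of 0.05 beside 6.01% of all genes. At 2 and 12 weeks 2.23% passed, and 1 of 7 (Cd24) was under 0.05 unadjusted beside 11.1%. The later pair, 4 and 12 weeks, had 0.11% passing and 0 of 7 under 0.05 unadjusted beside 4.47%. Between 2 and 4 weeks 0.455% passed, and 1 of 7 (Cd24) was under 0.05 unadjusted beside 7.24%. For PH and 4 weeks 0.31% passed, and 1 of 7 (Prom1) was under 0.05 unadjusted beside 10.2%. With 2 arrays a group only large differences could pass.

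Some members had groups whose arrays did not overlap, given here with the share of all genes that did the same. PH lay above 12 weeks for Prom1 and Spp1 (2 of 7, all genes 13.7%) and below for 0 of 7 (all genes 15.2%). The 2-week arrays lay above the 12-week arrays for Cd24 and Krt19 (all genes 17.6%) and below for 0 of 7 (16.8%). The 4-week arrays lay above the 12-week arrays for Cd24 and Krt7 (13.7%) and below for Prom1 (11.3%), though the nearest Prom1 arrays both round to 5.59. They lay below the 2-week arrays for Cd24 (20.1%) and above for Krt7 (20.1%). PH lay above 2 weeks for Prom1 and Spp1 (24.6%) and below for Cd24, Epcam and Krt19 (22.2%). PH lay above 4 weeks for Prom1 (21.6%) and below for Krt19 and Krt7 (22.5%).

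**Figure D1:**
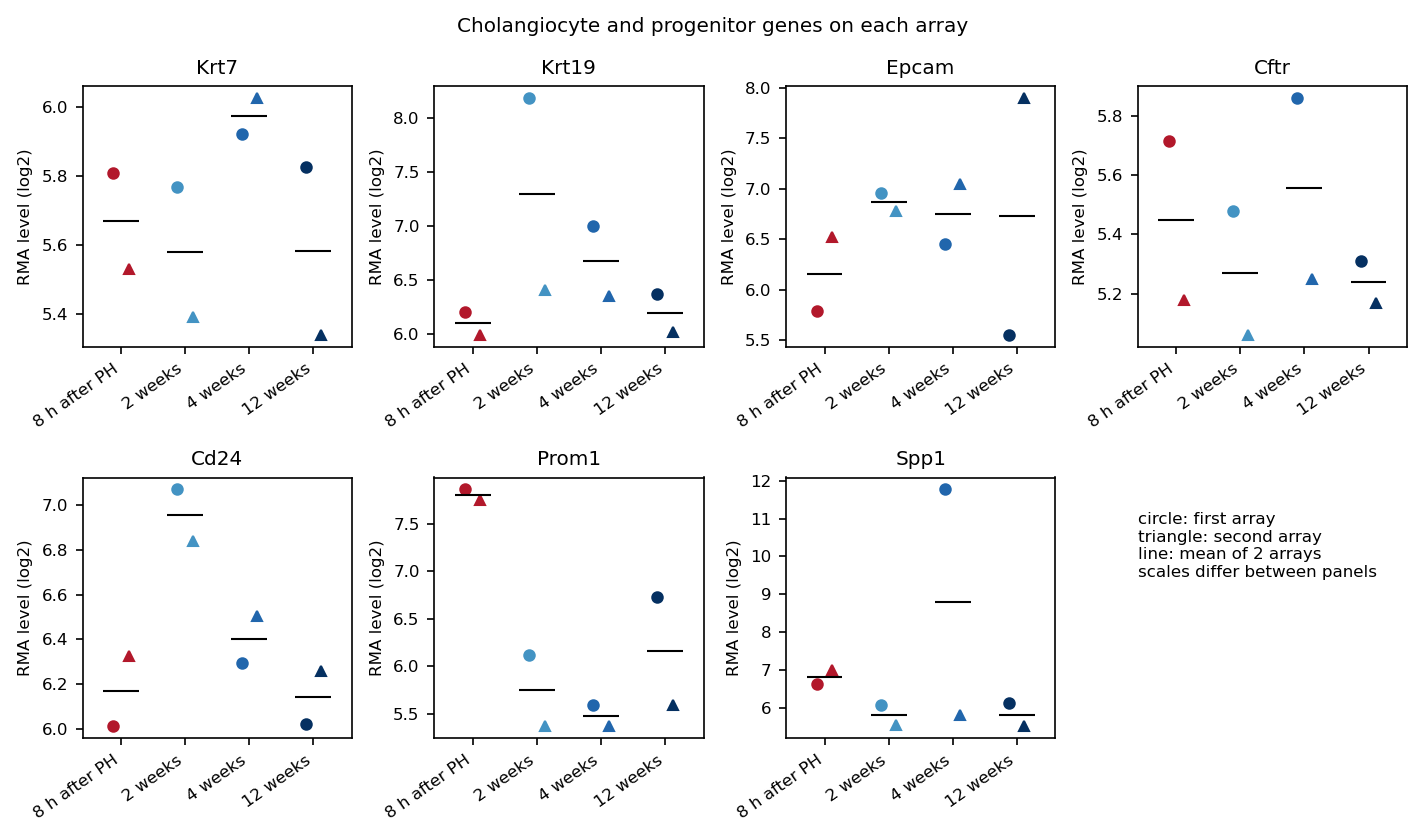
RMA level (log2, vertical axis) of the 7 measured duct and progenitor genes on each array of the 4 groups (horizontal axis); circles are first arrays, triangles second arrays, lines group means, and the scales differ between panels. Both PH arrays of Prom1 lie above the other 6, while Spp1 at 4 weeks, Krt19 at 2 weeks and Epcam at 12 weeks each have their arrays far apart.

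Prom1, a membrane glycoprotein of cell protrusions and the antigen CD133, was the only one of the 7 with both PH arrays above all the others. Its level was 7.86 and 7.75 on the PH arrays, 6.73 and 5.59 at 12 weeks, 6.12 and 5.37 at 2 weeks, and 5.59 and 5.37 at 4 weeks. Both PH arrays lay above the other 6, which 5.18% of all genes also showed, and the groups at 2, 4 and 12 weeks were close to one another except for the first 12-week array. Group means were 7.81 ± 0.08 (SD, n = 2) after PH. They were 5.75 ± 0.53, 5.48 ± 0.16 and 6.16 ± 0.81 in livers of 2, 4 and 12 weeks. Outside PH the Prom1 levels, except on the first 12-week array, lay below the median of all genes on the same array (medians 6.59 to 6.86). Low signals cannot be told from background here, so the size of a fold against them is uncertain.

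Prom1 rose 4.17-fold after PH relative to 2 weeks (log2 difference 2.06 ± 0.40, SE, limma adjusted p = 0.0389). It differed by 2.33 ± 0.40 from 4 weeks (adjusted p = 0.0734) and by 1.64 ± 0.40 from 12 weeks (adjusted p = 0.351), without passing. Below PH the order was 12, 2 and 4 weeks, with -0.42 ± 0.40 for 2 against 12 weeks (adjusted p = 0.806) and 0.27 ± 0.40 for 2 against 4 weeks (adjusted p = 0.97), within the spread. The pass against 2 weeks was lost without the first (adjusted p = 0.236) or second PH array (0.183), without the first (0.0969) or second 2-week array (0.182), without either 4-week array (0.0815 each) and when all probe sets were tested (0.0872). It was kept without either 12-week array (0.0108 each), and the log2 difference ran from 1.68 to 2.44 over all 13 alternatives that tested it. Against 4 weeks Prom1 passed in 5 of 13, among them without either 12-week array (0.0195 each).

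In the comparison in which Prom1 rose, the other members were split, and none of them passed. Krt19 (-1.20 ± 0.52), Cd24 (-0.79 ± 0.23) and Epcam (-0.72 ± 0.66) differed the opposite way. Spp1 (0.99 ± 1.49), Cftr (0.18 ± 0.30) and Krt7 (0.09 ± 0.26) differed the same way, so 4 of 7 members were above 0 and 3 below. Of 17 further biliary epithelium genes 0 passed there by limma, and 3 were above 0 and 14 below (median -0.26). The genes whose levels over the 8 arrays were most like those of Prom1 were Camk1d, a calmodulin-dependent kinase (Pearson r = 0.98), Prrg4, a membrane protein with a Gla domain (r = 0.95), and Fnbp1l, a membrane-bending adaptor (r = 0.94). These are the best of 1625 genes and are given as a description. Without the 2 arrays farthest from the Prom1 median r was 0.91, 0.91 and 0.64. Prrg4 was at 8.35 and 8.66 after PH and between 6.57 and 7.04 elsewhere. It rose by 1.69 ± 0.25 against 2 weeks (adjusted p = 0.0124) and by 1.89 ± 0.25 against 4 weeks (adjusted p = 0.0279). Its difference from 12 weeks, 1.68 ± 0.25, did not pass (adjusted p = 0.103). Camk1d passed against 2 weeks (1.33 ± 0.25, adjusted p = 0.0376) and not against 4 or 12 weeks (0.0807 and 0.456). Fnbp1l did not pass against 2, 4 or 12 weeks (adjusted p = 0.0843, 0.0659 and 0.211).

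The start region of Prom1 is shown because Prom1 was the gene that passed. The window runs from 250 bases before to 50 after 1 RefSeq start per gene, in the GRCr8 build, and 5 of the 7 measured genes had such an entry. For Prom1 it lies inside the RefSeq gene (71202303 to 71307008), so the start used is not the outermost one. Any other starts were not searched. The window was searched on both strands for TTTGAA (the cell cycle element CHR), CCAAT (the CCAAT box), TTCNNNGAA (a STAT site) and TGANTCA (an AP-1 site). Capitals mark matches.
Prom1 promoter, chr14:71202395-71202694, + strand: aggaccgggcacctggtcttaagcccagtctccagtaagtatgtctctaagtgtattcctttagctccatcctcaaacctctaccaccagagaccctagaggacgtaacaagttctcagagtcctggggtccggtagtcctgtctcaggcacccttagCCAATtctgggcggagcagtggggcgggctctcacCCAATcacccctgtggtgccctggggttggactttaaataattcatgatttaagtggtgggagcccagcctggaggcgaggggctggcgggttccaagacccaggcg
The 2 matches are CCAAT boxes, which 37.7% of 27457 promoters of that length hold at least once. The letters searched for STAT, AP-1 and CHR are not in this window, and they were in 8.68%, 7.33% and 18.1% of all promoters. A match is a description of the letters and not a measured binding site.

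**Figure D2:**
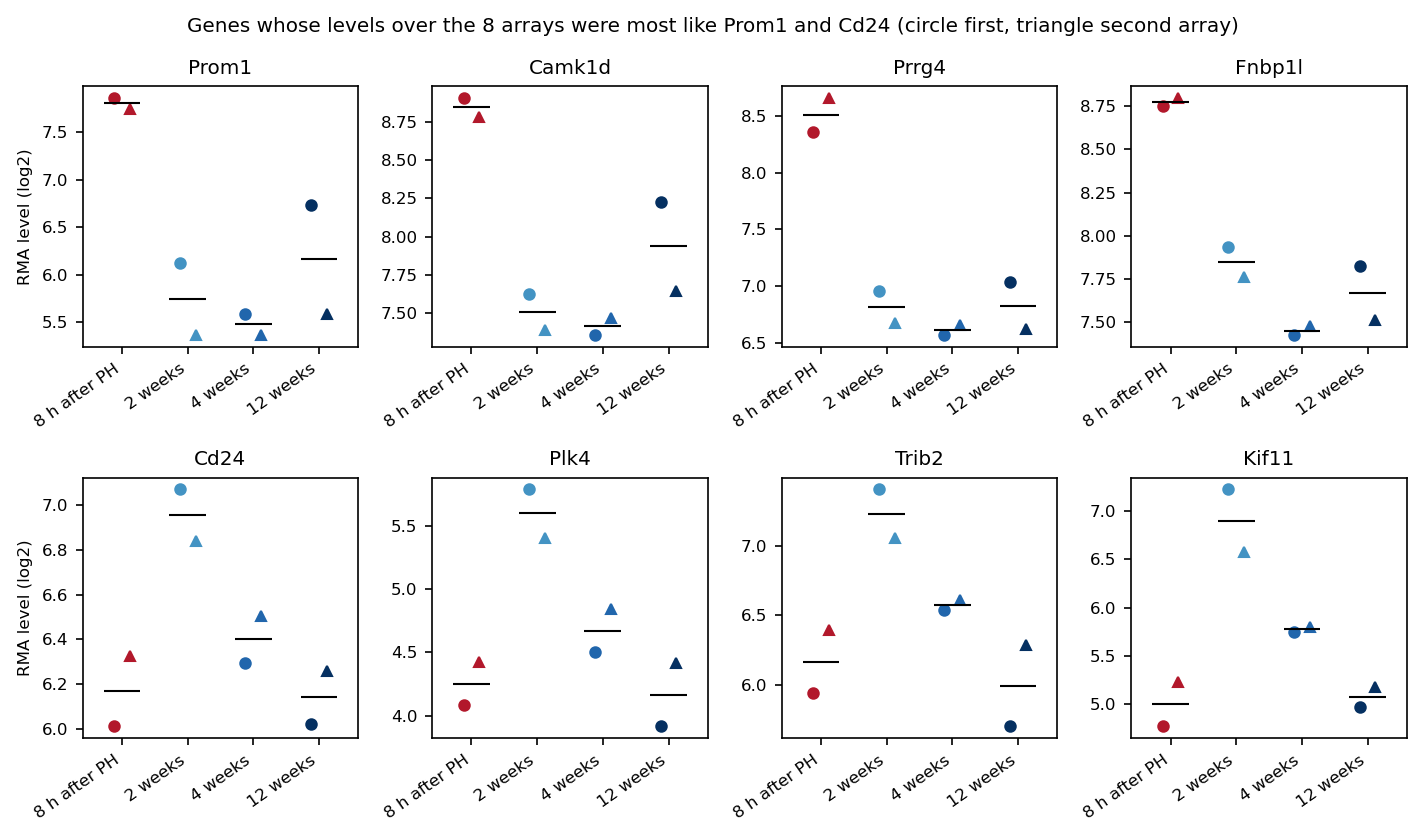
RMA level (log2, vertical axis) on each array of the 4 groups for Prom1 and its 3 most similar genes (top) and Cd24 and its 3 most similar genes (bottom); circles are first arrays, triangles second arrays, lines group means, and the scales differ. Prom1, Camk1d, Prrg4 and Fnbp1l are highest on the PH arrays, and Cd24, Plk4, Trib2 and Kif11 on the 2-week arrays.

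Spp1 was set apart by a single array. Its level was 11.77 on the first 4-week array and 5.83 on the second, 6.63 and 6.99 after PH, 6.08 and 5.56 at 2 weeks, and 6.12 and 5.52 at 12 weeks. The gap of 5.94 between the 4-week arrays was the largest of all 14511 genes in that group. The mean at 4 weeks of 8.80 ± 4.20 (SD, n = 2) therefore describes neither array. The PH arrays did not overlap with the arrays at 2 or 12 weeks and were higher, which 24.6% and 13.7% of all genes also showed.

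Spp1 did not pass in any comparison, with an SE of 1.49 (4 against 12 weeks 2.98, adjusted p = 0.999, 95% interval -0.44 to 6.40). Without the second 4-week array it differed by 5.95 from 12 weeks, by -5.95 for 2 against 4 weeks and by -4.96 for PH against 4 weeks. Without the first 4-week array the same differences were 0.008, -0.004 and 0.99. Each of these fits has a lone array at 4 weeks, so the gap between the 4-week arrays does not enter its spread. PH against 12 weeks gave 0.99 ± 1.49 (adjusted p = 1). The order of the means was 4 weeks, PH, 2 weeks and 12 weeks. Of the neighbours only PH and 2 weeks had arrays that did not overlap (0.99 ± 1.49, adjusted p = 0.912).

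Some genes of macrophages and of matrix-forming cells were also higher on that array. The names that follow were chosen after their values were seen. After Spp1, the largest gaps in favour of the first 4-week array were those of Mmp12, the macrophage elastase (8.67 against 4.81), Postn, the matrix protein periostin (7.42 against 4.40), Col1a1, a chain of type I collagen (11.15 against 8.19), and Lilrb4, a myeloid receptor (8.72 against 6.12). Col1a2 and Col3a1 were apart by 2.11 and 2.05. The genes with the array pattern most like that of Spp1 were Mmp12 (r = 0.96), Rgs1 (r = 0.96) and Gpnmb, a glycoprotein of lipid-laden macrophages (r = 0.91), and these rest on the one array. Without the 2 arrays farthest from the Spp1 median r was 0.51, 0.61 and 0.36.

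Of 14 stellate and fibroblast markers 12 were higher on the first 4-week array and 6 of them at least 2-fold, with a mean level of 8.69 against 7.68 on the second. For the 13 macrophage markers the mean level was 9.17 and 9.18 on the 2 arrays, and 7 were higher on the first, 1 of them at least 2-fold, while 2 were at least 2-fold lower. Gpnmb differed most among them, at 10.76 and 8.91, while Cd68, a macrophage lysosomal protein, was at 9.83 and 10.04. The 17 biliary epithelium genes were at a mean of 6.80 and 6.79, with 0 of them at least 2-fold apart. Of the other 6 members 3 were higher and 3 lower on the first array, by at most 0.65. The part of these cells in the Spp1 value was not tested.

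**Figure D3:**
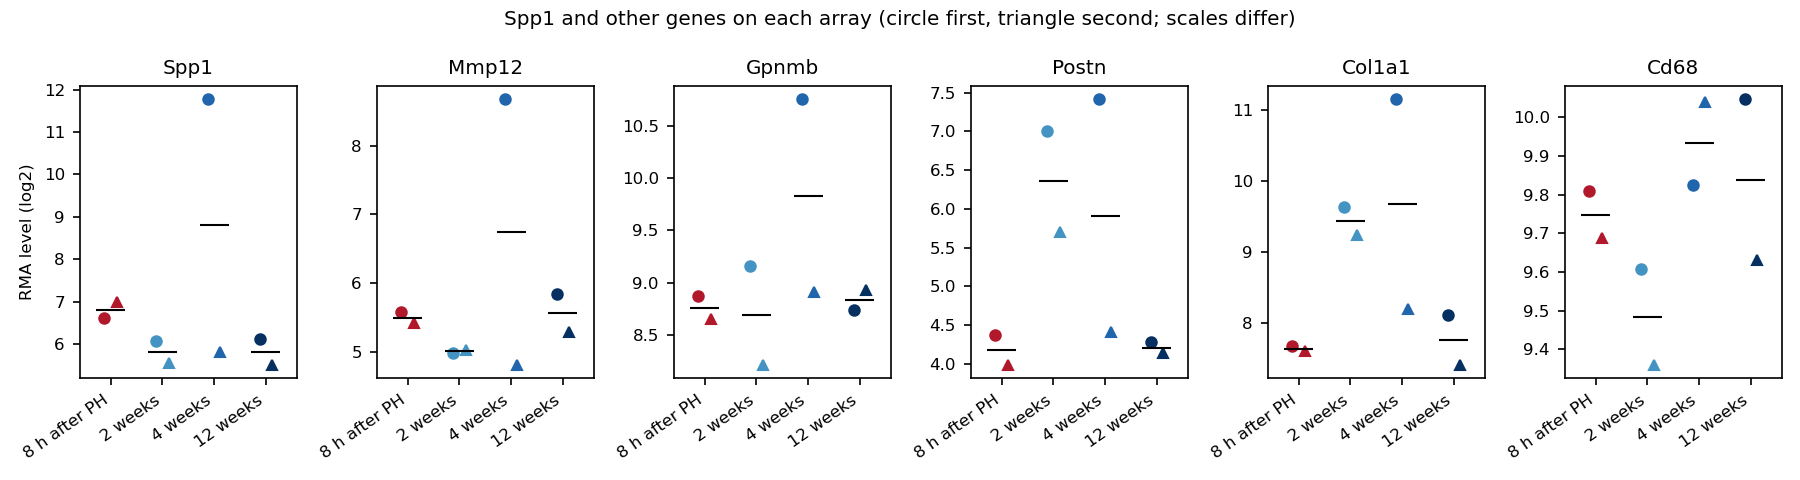
RMA level (log2, vertical axis) of Spp1, Mmp12, Gpnmb, Postn, Col1a1 and Cd68 on each array of the 4 groups; circles are first arrays, triangles second arrays, lines group means, and the scales differ. The first 4-week array is the highest of the 8 for the first 5 genes and not for Cd68.

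A start region each of Spp1 and of Gpnmb is shown for comparison, with the same window, build, motifs and capitals as for Prom1. Gpnmb was the last of the 3 genes named above as most like Spp1, and its r rests on the one array. Its Spearman rho with Spp1 was 0.143, against 0.69 for Mmp12 and 0.826 for Rgs1. The Spp1 window also lies inside its RefSeq gene (5613569 to 5620695).
Spp1 promoter, chr14:5619755-5620054, - strand: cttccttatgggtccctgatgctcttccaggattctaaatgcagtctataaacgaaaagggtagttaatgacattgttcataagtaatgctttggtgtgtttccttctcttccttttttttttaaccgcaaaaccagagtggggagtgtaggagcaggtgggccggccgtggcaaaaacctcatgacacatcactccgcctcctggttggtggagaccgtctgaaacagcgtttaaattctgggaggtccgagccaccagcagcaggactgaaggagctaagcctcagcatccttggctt
Gpnmb promoter, chr4:79340878-79341177, + strand: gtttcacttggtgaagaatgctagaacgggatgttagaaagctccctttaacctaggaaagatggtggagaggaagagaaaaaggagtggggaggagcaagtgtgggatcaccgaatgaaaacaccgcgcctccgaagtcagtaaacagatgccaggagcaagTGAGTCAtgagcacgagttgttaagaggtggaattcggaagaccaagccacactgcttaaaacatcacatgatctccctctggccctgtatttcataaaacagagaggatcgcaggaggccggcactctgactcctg
Gpnmb holds the AP-1 letters from position -87 relative to the start used, and so does Mmp12, also at -87. The Spp1 window holds none of the 4 motifs, and neither does that of Rgs1. AP-1 letters occur in 7.33% of all promoters, and no binding was measured.

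Krt19, the acidic keratin of duct cells, was high on one 2-week array. Its level at 2 weeks was 8.19 and 6.41. It was 6.999 and 6.35 at 4 weeks, 6.37 and 6.02 at 12 weeks, and 6.20 and 5.99 after PH. The first 2-week array is the highest of the 8, and both 2-week arrays lie above all PH and all 12-week arrays. The gap of 1.78 between the 2-week arrays was matched or exceeded by 0.503% of genes in that group. The 2-week livers did not overlap with the 12-week ones for 2 of 7 genes, Krt19 and Cd24, both higher, where 17.6% of all genes were higher without overlap.

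Krt19 differed by 1.11 ± 0.52 for 2 against 12 weeks (adjusted p = 0.498) and by -1.20 ± 0.52 for PH against 2 weeks (adjusted p = 0.42), and none of its comparisons passed. The latter was -0.31 without the first 2-week array and -2.09 without the second, in fits with a lone array at 2 weeks. The order of the means was 2 weeks, 4 weeks, 12 weeks and PH, with 0.62 ± 0.52, 0.48 ± 0.52 and 0.10 ± 0.52 between neighbours, none beyond the spread. The most similar genes were Rab3il1 (r = 0.96), Car1, a carbonic anhydrase of red cells and gut (r = 0.96), and Ptk2b, a kinase of blood cells among others (r = 0.96). Without the 2 arrays farthest from the Krt19 median r was 0.27, 0.91 and 0.98.

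Neutrophil, erythroid and stellate markers were also higher on the first 2-week array, and lymphocyte markers were not. The 11 neutrophil markers had a mean of 7.39 on it and 5.76 on the second, with 6 at least 2-fold higher, against 5.54 to 5.63 after PH, 5.58 to 5.76 at 4 weeks and 5.12 to 5.31 at 12 weeks. Ngp, a granule protein, was at 11.28 and 6.55. The 10 erythroid markers had a mean of 8.55 and 7.68 on the 2-week arrays, 7.08 to 7.41 at 4 weeks, 6.29 to 6.45 at 12 weeks and 5.94 to 5.97 after PH. Of the stellate markers 13 of 14 were higher on the first (means 8.45 and 8.17), and of the lymphocyte markers 4 of 10 were (5.53 and 5.54). The part of these cells in the Krt19 value was not tested. Biliary epithelium genes had means of 7.03 and 6.84 at 2 weeks, with 13 of 17 higher on the first. None was at least 2-fold higher there, and 1 was on the second.

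Cd24, a small glycosylated surface antigen of duct, progenitor and immature blood cells, was highest in the youngest livers. Its level was 7.07 and 6.84 at 2 weeks, 6.29 and 6.51 at 4 weeks, 6.01 and 6.33 after PH, and 6.02 and 6.26 at 12 weeks. Both 2-week arrays lay above the other 6, as they did for 6.77% of all genes, and the 4-week arrays lay above both 12-week arrays. Replicates were close, with gaps of 0.21 to 0.32.

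Cd24 was 1.76-fold higher at 2 than at 12 weeks (0.81 ± 0.23, adjusted p = 0.168, unadjusted p = 0.0078) and lower after PH than at 2 weeks (-0.79 ± 0.23, adjusted p = 0.179), and neither passed. In the order of the means the step from 2 to 4 weeks was 0.555 ± 0.23, with no overlap of arrays (unadjusted p = 0.0435, adjusted p = 0.658). PH was next, at -0.23 ± 0.23 against 4 weeks, and then 12 weeks, with 0.03 ± 0.23 for PH against 12 weeks, and the arrays of these neighbours overlapped. PH against 12 weeks had a 95% interval of -0.51 to 0.56.

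The genes most like Cd24 over the 8 arrays were Plk4, the kinase that starts centriole duplication (r = 0.995), Trib2, a pseudokinase (r = 0.98), and Kif11, a motor of the mitotic spindle (r = 0.98). Without the 2 arrays farthest from the Cd24 median r was 0.97, 0.93 and 0.86. Kif11 was at 7.23 and 6.58 at 2 weeks, and between 4.77 and 5.80 on the other 6. It rose by 1.83 ± 0.28 at 2 against 12 weeks (adjusted p = 0.0158), and Plk4 by 1.43 ± 0.28 (adjusted p = 0.0402). Erythroid markers, given above by group, moved in the same direction as Cd24: all 10 were above 0 at 2 against 12 weeks and 3 passed (median 1.89), where 2.23% of all genes passed. They were not alone, since 12 of 14 stellate (3 passed), 11 of 11 neutrophil and 4 of 4 mesothelium markers were also above 0. Of the macrophage markers 5 of 13 were above 0, and of the lymphocyte markers 1 of 10. The part of these cells in the Cd24 value was not tested.

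Epcam, an adhesion molecule of duct epithelium, varied most between the 12-week arrays. Its level was 5.55 on the first and 7.90 on the second, the lowest and the highest of the 8. It was 6.95 and 6.78 at 2 weeks, 6.45 and 7.05 at 4 weeks, and 5.79 and 6.52 after PH. The 12-week arrays overlapped with every other group. Their gap of 2.35 was matched or exceeded by 0.434% of genes in that group.

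Epcam differed by -0.57 ± 0.66 for PH against 12 weeks (adjusted p = 1), which became -1.75 without the first 12-week array and 0.60 without the second. For 2 against 12 weeks the values were 0.14 ± 0.66 (adjusted p = 0.966), -1.03 and 1.32 in the same order. The PH arrays lay below both 2-week arrays (-0.72 ± 0.66, adjusted p = 0.802). The order of the means was 2 weeks, 4 weeks, 12 weeks and PH, and no neighbours differed beyond their spread. The most similar genes were Laptm4b, a lysosomal membrane protein (r = 0.92, 7.97 and 10.86 at 12 weeks), Nudt14 (r = 0.88) and Tspan6 (r = 0.88). These held without the 2 arrays farthest from the Epcam median (r = 0.94, 0.90 and 0.96). Biliary epithelium genes had means of 6.64 and 6.76 on the 12-week arrays and 0 of 17 apart by at least 2-fold. Lymphocyte markers were at 5.85 and 6.56, with 4 of 10 at least 2-fold higher on the second, and 12 of 13 pancreas markers were higher on the first (5.80 and 5.37). These pancreas levels were low. The median of the sensory receptor genes was likewise higher on the first 12-week array, at 4.74 against 3.92. Magoh, Dad1 and Ndufc2, chosen after their values were seen, were also lower on the first 12-week array, at 5.14 against 8.48, 8.39 against 11.13 and 8.40 against 10.48, and they were lower on the first array of the other groups too. The part of these differences in the Epcam value was not tested.

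Krt7, the basic keratin of duct cells, and Cftr differed little between groups, but both were dim. Their levels lay below the median of all genes on every array (6.59 to 6.86). Low signals cannot be told from background here, so small differences do not show steady expression. Of the 7 measured members only Spp1 had a mean over the arrays at or above that of the median gene. Krt7 was at 5.92 and 6.03 at 4 weeks, 5.81 and 5.53 after PH, 5.82 and 5.34 at 12 weeks, and 5.77 and 5.39 at 2 weeks. Both 4-week arrays lay above the other 6, as for 3.01% of all genes. The difference was 0.39 ± 0.26 for 4 against 12 weeks (adjusted p = 0.999) and 0.09 ± 0.26 for PH against 12 weeks (adjusted p = 1), with a 95% interval of -0.51 to 0.68 for the latter. In the order of the means, 4 weeks, PH, 12 weeks and 2 weeks, the first step was -0.31 ± 0.26 for PH against 4 weeks (adjusted p = 0.801), with arrays that did not overlap, and the arrays of the later neighbours overlapped. The most similar genes were RT1-S2 (r = 0.89), Zfp385a (r = 0.88) and Fads1, a fatty acid desaturase (r = 0.86), and r was 0.73, 0.95 and 0.95 without the 2 arrays farthest from the Krt7 median.

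Cftr was at 5.72 and 5.18 after PH, 5.48 and 5.06 at 2 weeks, 5.86 and 5.25 at 4 weeks, and 5.31 and 5.17 at 12 weeks. The groups overlapped in all 6 comparisons, and the first array of each group was above the second. PH against 12 weeks gave 0.21 ± 0.30 (adjusted p = 1, 95% interval -0.48 to 0.90), and 4 against 12 weeks 0.31 ± 0.30 (adjusted p = 0.999). Neighbours in the order, 4 weeks, PH, 2 weeks and 12 weeks, did not differ beyond their spread. The most similar genes were Prelp (r = 0.81), Gpnmb (r = 0.79) and Cotl1 (r = 0.76), with r = 0.27, 0.81 and 0.90 without the 2 arrays farthest from the Cftr median.

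**Figure D4:**
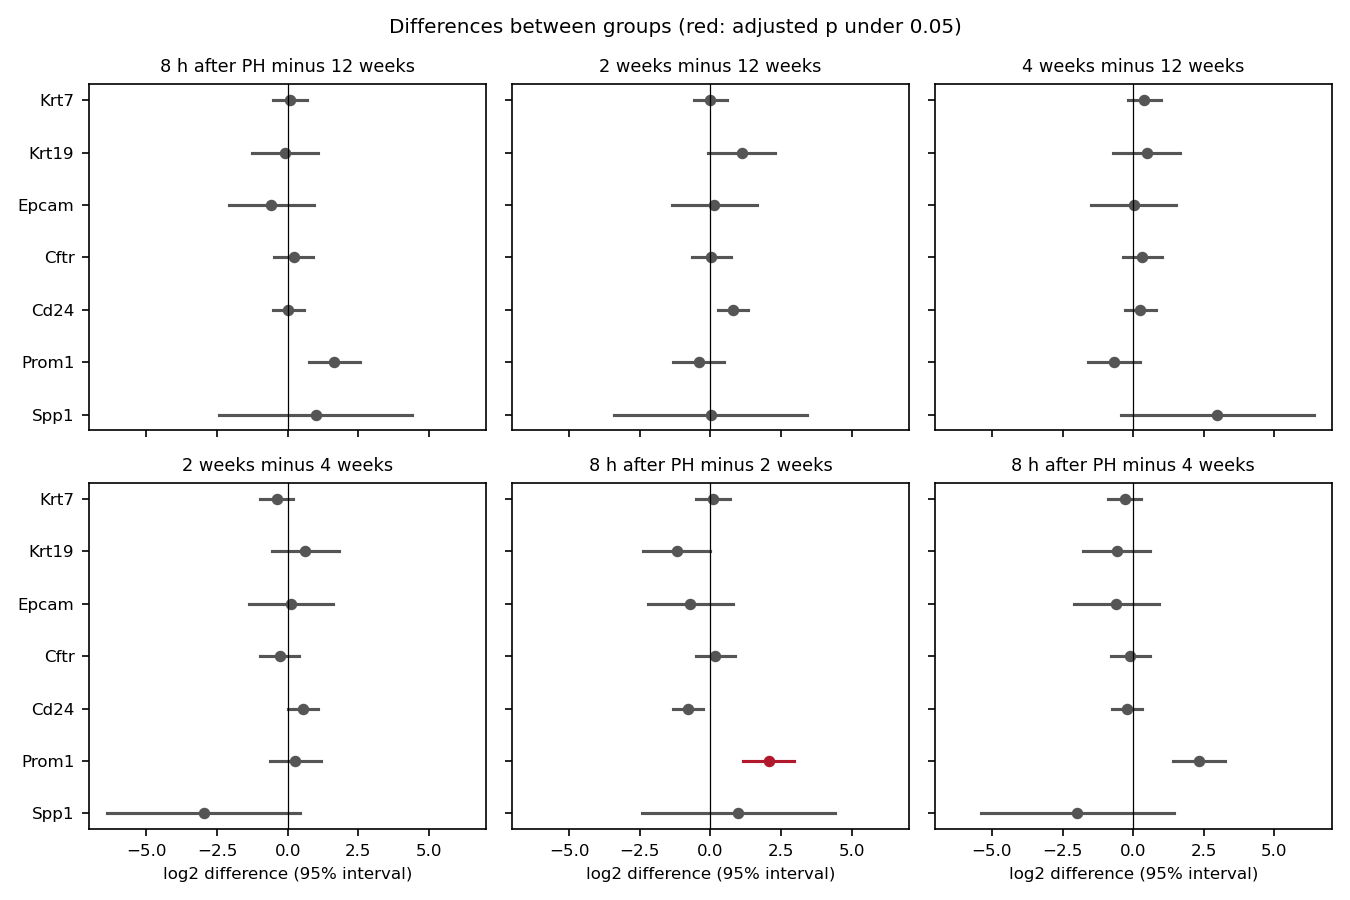
Log2 difference (horizontal axis) of each of the 7 genes (vertical axis) in the 6 comparisons, one per panel, with points for the limma estimate and bars for its unadjusted 95% interval; red marks an adjusted p under 0.05. Prom1 after PH against 2 weeks, at 2.06, is the one that passed, and the bars of Spp1 are the widest.

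Further genes of the bile duct and of progenitor cells were counted in lists. Of 17 biliary epithelium genes (keratins, claudins, integrins and epithelial factors) 0 passed in any comparison by limma, and 1 to 3 had an unadjusted p under 0.05, where 4.47% to 11.6% of all genes did. At 2 against 12 weeks 13 were above 0 (median 0.16), and those with the largest differences were Krt23, a keratin (1.31 ± 0.47, adjusted p = 0.306), and Tspan8, a tetraspanin (1.17 ± 0.36, adjusted p = 0.197). After PH against 12 weeks the largest were Krt18, the keratin of all simple epithelia including hepatocytes (0.93 ± 0.26, adjusted p = 0.442), and Cdh1, E-cadherin (-0.82 ± 0.39, adjusted p = 0.883).

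Among 15 genes of duct transport and secretin signalling, Bicc1, an RNA-binding protein whose loss gives cystic kidneys, rose at 2 against 12 weeks (2.02 ± 0.32, adjusted p = 0.0182) and was lower after PH than at 2 weeks (-1.83 ± 0.32, adjusted p = 0.0288). Its levels were 8.77 and 7.99 at 2 weeks, 7.67 and 6.99 at 4 weeks, 6.60 and 6.50 after PH, and 6.37 and 6.34 at 12 weeks. The 2-week arrays thus lay above all others, as for 6.77% of all genes. The other 14 did not pass in any comparison, and 0 to 3 of the 15 had an unadjusted p under 0.05, where 4.47% to 11.6% of all genes did.

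Among 14 biliary transcription factors and Notch genes, Onecut1 (HNF6), which acts in duct formation and in hepatocytes, was higher after PH than at 2 weeks (2.22 ± 0.40, adjusted p = 0.0308). It was at 11.02 and 10.33 after PH, 9.03 and 7.88 at 2 weeks, 9.88 and 9.60 at 4 weeks, and 9.90 and 9.59 at 12 weeks. The PH arrays lay above the other 6, as for 5.18% of all genes. The other 13 did not pass in any comparison. Of 11 YAP targets and pathway genes 0 passed in any comparison by limma (0 to 2 with an unadjusted p under 0.05, beside 4.47% to 11.6% of all genes). At 2 against 12 weeks the largest differences among them were those of Ajuba (1.00 ± 0.26, adjusted p = 0.131) and Birc5 (0.50 ± 0.24, adjusted p = 0.503).

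Of 16 progenitor and oval cell genes 5 rose at 2 against 12 weeks and 0 fell. In all 11 were above 0 and 5 below (median 0.19), and of all 14511 genes 187 rose and 136 fell. They were Afp, the fetal serum protein (6.58 ± 0.33, adjusted p = 1.04e-04), Igf2, a fetal growth factor (5.75 ± 0.39, adjusted p = 2.85e-04), Top2a, a topoisomerase of dividing cells (2.99 ± 0.37, adjusted p = 0.00686), Gpc3, a fetal surface proteoglycan (1.67 ± 0.24, adjusted p = 0.0115), and Lgr5, a Wnt-linked receptor (1.59 ± 0.31, adjusted p = 0.0411). After PH against 12 weeks 0 of 16 passed by limma, and 0 had an unadjusted p under 0.05 (8 above 0, median 0.02). In PH against 2 weeks, where Prom1 passed as higher, 4 of these 16 fell and 0 rose (12 below 0, median -0.31). Of all 14511 genes 198 fell and 115 rose there. Afp at 6.49 and 6.41 after PH stood with 6.52 and 7.46 at 12 weeks, away from 13.70 and 13.44 at 2 weeks.

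Markers of other cells were counted in the same comparisons. At 2 against 12 weeks 3 of 14 stellate and fibroblast markers rose (median 1.26), while macrophage (13, median -0.06), neutrophil (11, median 0.95), lymphocyte (10, median -0.73), pancreas (13, median 0.04), gut and kidney epithelium (9, median -0.19) and mesothelium markers (4, median 0.74) had 0 passing by limma. With an unadjusted p under 0.05 there were 1, 8, 6, 1, 0 and 3 in that order. Of all genes 2.23% passed in that comparison and 11.1% had an unadjusted p under 0.05. After PH against 12 weeks 0 passed by limma in each of these lists and in the erythroid one (0 to 2 with an unadjusted p under 0.05), with medians between -0.60, for lymphocyte markers, and 0.29, for mesothelium. Of all genes 0.0345% passed there and 6.01% had an unadjusted p under 0.05. In PH against 2 weeks, where Prom1 passed, 5 of 10 erythroid markers fell (all 10 below 0, median -2.29), and so did 1 of 14 stellate markers, Reln (13 below 0, median -1.03). Of all genes 2.16% passed there in either direction, and 11.6% had an unadjusted p under 0.05. Neutrophil markers had 0 of 11 passing there by limma (4 with an unadjusted p under 0.05, 8 below 0, median -0.77), and the macrophage, lymphocyte, pancreas, gut and kidney, and mesothelium lists also had 0 passing (1, 0, 1, 1 and 1 with an unadjusted p under 0.05). The part of these cells in the Prom1 value was not tested. As background, ducts of the pancreas also use Krt19 and Cftr, and the pancreas markers had array means between 5.37 and 5.80.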

How the data were processed

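Liver RNA of 8 arrays in 4 groups of 2 was compared. The authors deposited log2 values. Per the submitters' processing notes, these came from RMA and the Affymetrix Expression Console, with no version stated. They ran from 1.32 to 14.23, and no detection calls were used, so low signals cannot be told from background, and RMA compresses their changes. The number of arrays limits the precision.

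Of 29214 probe sets, 15316 had 1 symbol in the platform annotation, 317 several and 13581 were unnamed here. Names were checked by gene identifier against GRCr8 (15285 matched, 0 renamed). Of genes with several probe sets (528) the one with the highest mean was kept. Each of the 7 genes had 1. Groups were fitted in 1 model with limma 3.58.1 (R 4.3.3), lmFit and eBayes, with 4 residual and 4.27 prior degrees of freedom, and 6 contrasts and an F test were two-sided at an adjusted p under 0.05.

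The members and lists were chosen with earlier results of these data known. Named genes were the members, list genes called in any comparison (otherwise the 2 with the largest difference), and per member the 3 genes of highest Pearson r among those whose group means spanned at least 1 log2 unit. Alternatives were leaving out each array, the replicate number as a block, median centring, the receptor-gene median as a covariate, a filter on dim genes, all probe sets and a variance prior with trend.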

Additional observations from a re-analysis of the deposited data

How the results depend on the processing

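Over the alternatives 497 member differences kept their direction and side of the threshold, 9 newly passed, 7 no longer passed and 39 changed sign, all of differences that did not pass as reported. Leaving out 1 array, which assumes that the lone array varies like the other groups, the sign changes gave ranges for PH against 12 weeks of -0.13 to 0.19 (Cd24), -0.061 to 0.48 (Cftr), -1.75 to 0.60 (Epcam), -0.27 to 0.079 (Krt19) and -0.16 to 0.33 (Krt7). For 2 against 12 weeks they were -0.18 to 0.24 (Cftr), -1.03 to 1.32 (Epcam), -0.24 to 0.24 (Krt7), -0.99 to 0.16 (Prom1) and -0.30 to 0.31 (Spp1), and for 4 against 12 weeks -1.15 to 1.197 (Epcam). For 2 against 4 weeks they were -0.59 to 0.022 (Cftr), -0.18 to 0.42 (Epcam), -0.27 to 1.52 (Krt19) and -0.11 to 0.64 (Prom1). For PH against 2 weeks they were -0.092 to 0.45 (Cftr) and -0.10 to 0.28 (Krt7), and for PH against 4 weeks -0.41 to 0.20 (Cftr) and -4.96 to 0.99 (Spp1). Median centring moved every difference by the shift between group medians (-0.11 for 2 against 12 weeks, 0.15 for PH against 2 weeks, 0.11 for PH against 4 weeks), giving -0.082 for Cftr and -0.11 for Spp1 at 2 against 12 weeks, -0.053 for Epcam at 4 against 12 weeks and 0.006 for Cftr in PH against 4 weeks. With the receptor-gene median in the model Epcam became -0.54, -0.72, 0.18 and 0.36 (2 and 4 against 12 weeks, PH against 2 and 4 weeks), and Krt7 0.15 and -0.11 (2 against 12 weeks, PH against 2 weeks).

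The F test counted 1 member, not 0, with the block, median centring, the covariate or the trend, and 0 to 1 with 1 array left out. PH against 2 weeks counted 0 members with all probe sets or above the median level, where Prom1 was not tested, and 0 to 1 without 1 array. PH against 4 weeks counted 1 with the block, centring or covariate, and 0 to 1 without 1 array, as did 4 against 12 and 2 against 4 weeks. Calls over all genes, without 1 array, ran from 1 to 11 for PH against 12 weeks (5), 101 to 382 for 2 against 12 (323), 5 to 24 for 4 against 12 (16), 26 to 110 for 2 against 4 (66), 72 to 421 for PH against 2 (313) and 6 to 132 for PH against 4 weeks (45). Other counts beyond 1.5 times were 13 (centring), 40 (covariate) and 3 (all probe sets) for PH against 12 weeks, 140 (covariate) for 2 against 4, and 68 (centring), 232 (covariate) and 22 (all probe sets) for PH against 4 weeks. The cause was not tested.

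With the replicate number as a block the calls were 41, 515, 30, 129, 498 and 143 in the order above, and Prom1 in PH against 4 weeks passed (adjusted p = 0.0117). No source says that a number pairs arrays. The difference between first and second arrays correlated over genes between groups with r from 0.023 to 0.568. A second probe set was not tried, since no member has one.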

Other observations

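Skeletal muscle genes were high on the second 2-week array. Acta1, the actin of skeletal muscle, was at 10.74 there and between 6.52 and 6.93 on the other 7, and Myh2, a fast myosin heavy chain, was at 8.15 against 4.18 to 5.17. These names were chosen after their values were seen. The 7 duct and progenitor genes were lower on that array than on the first of its group, by 0.17 (Epcam) to 1.78 (Krt19). Of all 14511 genes 7462 were lower on it, as were 10 of 11 neutrophil, 9 of 10 erythroid and 13 of 14 stellate markers. In other lists fewer were lower: 9 of 13 macrophage, 7 of 14 hepatocyte, 2 of 4 mesothelium, 4 of 9 gut and kidney, 4 of 10 lymphocyte and 3 of 13 pancreas markers.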
